A study of Mus musculus with 24 samples.

Results

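In the livers of 129S1/SvImJ mice, 16 genes that C57BL/6J livers transcribed at a low level had almost no counts. They were found from the counts themselves: a gene qualified when its mean over the 11 129S1/SvImJ libraries was at most 0.05 CPM (1 CPM is 1 count in 1000000 of the library's counts) and its mean was at least 1 CPM in C57BL/6J on each diet. Genes of the Mup, Trim, Ugt, Gst, Cyp, Ces, Serpina, H2- and Sult families and genes studied for interferon or lymphocytes were left out, which removed Ifi206, Ifi213, Gvin1, Mup-ps7, Trim5 and Trim12a from the 22 that met the values. The 16 are drawn from 53677 gene identifiers, of which 12936 reached 1 CPM in both C57BL/6J diet groups with the same symbols left out. RNA was measured by sequencing of total liver RNA depleted of ribosomal RNA, with 1 library per mouse from 4 groups: 129S1/SvImJ on high-fat diet (6 mice), 129S1/SvImJ on chow (5 mice), C57BL/6J on high-fat diet (7 mice) and C57BL/6J on chow (6 mice). The labels state strain, diet and tissue and do not state age, sex, diet composition or feeding time, and neither strain is labelled with an engineered allele. C57BL/6J carries a natural partial deletion of the mitochondrial transhydrogenase gene Nnt. Counts can fall on the part that remains, so its 3.57 ± 0.959 CPM in 129S1/SvImJ and 5.08 ± 1.47 CPM in C57BL/6J (SD, n = 11 and 13) do not check the labels.

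Inbred mouse strains differ by single-base variants, by insertions and deletions, and by the number of copies of some genes. A gene can be silent in the tissue of 1 strain when it is missing from that genome, when its promoter is not used, or when its RNA is unstable. The mm10 assembly that the counts rest on is built from C57BL/6J, so RNA of another strain can also fail to align where its sequence has diverged. Counts near 0 in 129S1/SvImJ cannot tell these cases apart, and in bulk liver fewer cells of a type and less RNA per cell cannot be told apart either.

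Sequence was available from the RefSeq promoter table (mm10 patch assembly GRCm38.p6, 250 bases before to 50 after the start) for 8 of the 16 genes, and is shown for the 4 protein-coding genes whose RefSeq start lies within 56 bases of the GENCODE start, because a promoter is where a gene that is silent in 1 strain would be read in the other. Capitals mark CG dinucleotides, each strand is written 5′ to 3′ in the direction of the gene, and the windows are chr4:147492167-147492466 (plus) for Zfp982, chr6:52260831-52261130 (minus) for Hoxa13, chr14:118052197-118052496 (minus) for Dct and chr17:74047811-74048110 (minus) for Srd5a2.
Zfp982: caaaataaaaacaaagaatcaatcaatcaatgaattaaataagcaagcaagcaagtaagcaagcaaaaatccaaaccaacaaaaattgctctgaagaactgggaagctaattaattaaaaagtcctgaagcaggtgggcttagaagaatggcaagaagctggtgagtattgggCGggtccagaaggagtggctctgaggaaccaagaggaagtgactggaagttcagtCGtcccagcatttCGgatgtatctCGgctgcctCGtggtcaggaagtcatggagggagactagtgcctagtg
Hoxa13: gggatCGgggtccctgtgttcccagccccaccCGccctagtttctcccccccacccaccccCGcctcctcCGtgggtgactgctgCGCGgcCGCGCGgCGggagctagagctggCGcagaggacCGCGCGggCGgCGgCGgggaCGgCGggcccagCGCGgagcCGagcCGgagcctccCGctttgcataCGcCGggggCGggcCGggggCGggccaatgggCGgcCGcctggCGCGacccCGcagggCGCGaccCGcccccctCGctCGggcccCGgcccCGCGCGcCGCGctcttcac
Dct: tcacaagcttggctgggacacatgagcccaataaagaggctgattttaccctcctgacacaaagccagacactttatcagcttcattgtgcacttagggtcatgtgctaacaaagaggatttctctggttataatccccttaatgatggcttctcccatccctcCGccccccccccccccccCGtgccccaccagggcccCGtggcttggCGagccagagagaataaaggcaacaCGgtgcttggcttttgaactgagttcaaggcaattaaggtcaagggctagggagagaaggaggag
Srd5a2: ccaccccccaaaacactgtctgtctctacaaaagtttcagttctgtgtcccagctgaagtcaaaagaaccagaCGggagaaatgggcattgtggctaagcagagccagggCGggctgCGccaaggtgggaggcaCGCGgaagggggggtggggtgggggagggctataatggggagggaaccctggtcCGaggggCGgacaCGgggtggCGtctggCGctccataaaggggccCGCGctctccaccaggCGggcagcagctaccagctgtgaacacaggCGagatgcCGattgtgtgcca
The 4 windows were compared only by CG count, by share of G or C and by the letters TATAAA. The Hoxa13 window held 45 CG dinucleotides and 81% G or C, more CG than 98.07% of the 32851 promoters of that length in the table. The Srd5a2 window held 15 CG, the Zfp982 and Dct windows held 5 each, and the median promoter held 7. The letters TATAAA, searched on both strands, were in 1 of the 8 available promoters (Gm43305) and in 13.616% of all promoters in the table.

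The shortest of the 16 genes, the small nucleolar RNA gene Gm24727, is shown whole because most of its sequence is not its own. It (ENSMUSG00000088856.1) lies at chr8:33691801-33691944 (plus) in GENCODE M21, and capitals mark the 121 of its 144 bases that fall in 50-base stretches also found in the transcript of another snoRNA gene, Gm23123.
Gm24727: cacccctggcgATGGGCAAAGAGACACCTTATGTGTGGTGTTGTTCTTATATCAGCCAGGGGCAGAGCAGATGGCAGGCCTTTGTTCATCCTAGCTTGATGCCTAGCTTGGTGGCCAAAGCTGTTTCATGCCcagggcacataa
Gm23123, on chromosome 17, had no count in any library of either strain.

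The livers were compared at depths that make a level of 0.05 CPM a matter of single reads. Library totals were 6707013 to 13035534 counts in 129S1/SvImJ on high-fat diet, 7607255 to 9184270 in 129S1/SvImJ on chow, 8294723 to 13124881 in C57BL/6J on high-fat diet and 10162138 to 12826048 in C57BL/6J on chow. A count of 0 in 1 library of 129S1/SvImJ allows up to 0.230 to 0.447 CPM (3 counts), and 0 over all 11 allows up to 0.0279 CPM, for counting error only. All libraries carried strong hepatocyte RNA: 6 marker genes summed to 53800 to 75010 CPM in 129S1/SvImJ on high-fat diet, 73520 to 87820 in 129S1/SvImJ on chow, 58780 to 79690 in C57BL/6J on high-fat diet and 82640 to 93070 in C57BL/6J on chow. Marker sums of other cells ran lower in 129S1/SvImJ, with ranges that overlapped: 46.1 to 160.0 CPM against 120.4 to 318.4 CPM for 5 Kupffer cell genes, 0.357 to 2.84 CPM against 2.12 to 6.27 CPM for 6 lymphocyte genes and 3.38 to 12.8 CPM against 8.46 to 21.3 CPM for 4 cholangiocyte genes. Sox9 was the largest part of the cholangiocyte sum. Its means on high-fat diet and chow were 2.85 and 4.26 CPM in 129S1/SvImJ and 9.52 and 12.3 CPM in C57BL/6J. Mean Krt19 on chow was 0.966 CPM in 129S1/SvImJ and 0.941 CPM in C57BL/6J. Sums for 5 sinusoidal endothelial and 4 stellate cell genes overlapped between the strains. Of the endothelial genes, Lyve1 had lower means in 129S1/SvImJ on both diets and Stab2 had higher means, so a sum can hide its single genes. None of these markers was at 0 in all libraries, and the part of cell makeup in the levels below was not tested. The labels' mouse identifiers carry a number whose meaning they do not give. Each group holds 2 such numbers and no groups share one, so this number is nested in strain and diet. The main fit treats the mice as independent. As a random effect in limma voom, an alternative chosen after seeing the data, the number gave a correlation of -0.00149 over all genes.

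Summed over the 16 genes, a 129S1/SvImJ library held 1 to 7 counts, or 0.113 to 0.762 CPM, against 531 to 1007 counts, or 55.2 to 102.5 CPM, in a C57BL/6J library. The 129S1/SvImJ livers gave 34 counts in all, 19 on high-fat diet and 15 on chow, where the C57BL/6J livers gave 9668. In 129S1/SvImJ 4 genes had no count in any liver (Cebpe, Zfp982, Gm16348 and 6820402A03Rik), and no gene had more than 5 counts over the 11 livers. These are the values by which the genes were chosen, and no test of strain is given for them. The folds and intervals given below for single genes among the 16 describe the same chosen values and leave out the spread between mice.

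**Figure D1:**
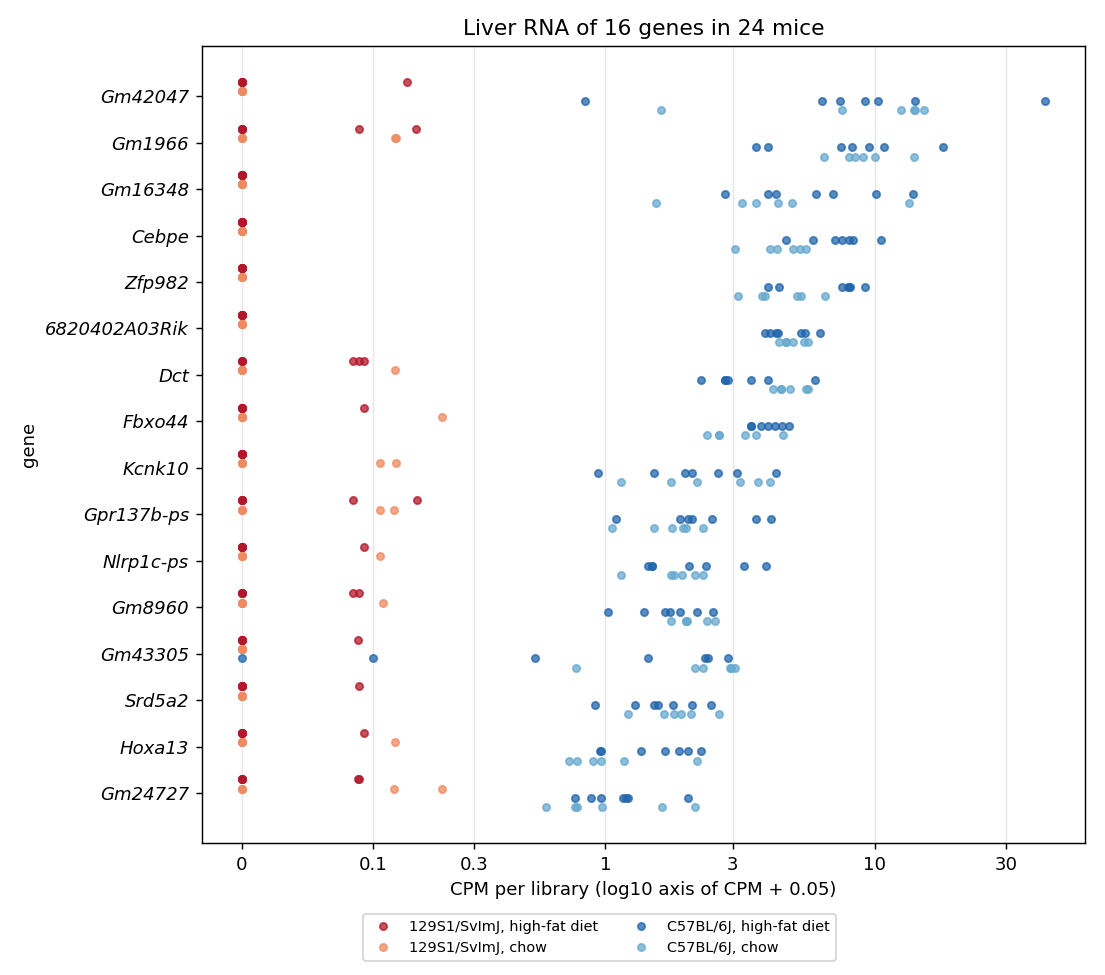
CPM of each of the 16 genes in each of the 24 libraries (log10 axis of CPM + 0.05, 1 point per mouse), with 129S1/SvImJ on high-fat diet and chow in red and orange and C57BL/6J on high-fat diet and chow in dark and light blue. Every 129S1/SvImJ point lies at 0 or at 1 to 2 counts, and the C57BL/6J points lie above them except for Gm43305, where 1 C57BL/6J liver on high-fat diet is also at 0.

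Among the 7 protein-coding genes, 3 encode DNA-binding proteins. Cebpe encodes C/EBP epsilon, a transcription factor known from the late maturation of granulocytes. It is a short gene of 2 exons on the minus strand of chromosome 14 (54710360 to 54712174, ENSMUSG00000052435.7) and had no count in any 129S1/SvImJ liver. In C57BL/6J its lowest, median and highest levels were 4.70, 7.57 and 10.5 CPM on high-fat diet and 3.07, 4.69 and 5.57 CPM on chow, so the 2 diet groups overlapped and every liver stood clear of 0. The pooled level was at least 220.6-fold lower in 129S1/SvImJ, counted from a floor of 3 counts over the 11 libraries. Markers of neutrophils, which express Cebpe while they mature, were low: S100a8, S100a9, Ly6g and Retnlg summed to 0 to 0.801 CPM in 129S1/SvImJ on high-fat diet, 0 to 0.436 CPM in 129S1/SvImJ on chow, 0.265 to 1.49 CPM in C57BL/6J on high-fat diet and 0.390 to 0.960 CPM in C57BL/6J on chow. Mean S100a9 was 0.572 and 0.397 CPM in C57BL/6J on high-fat diet and chow, against 0.169 and 0.0956 CPM in 129S1/SvImJ. S100a8 was also higher in C57BL/6J on both diets, and Ly6g and Retnlg were not. Ly6g was at 0 in all 13 C57BL/6J livers and in 129S1/SvImJ on chow. The part of neutrophils in the Cebpe level was not tested.

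Zfp982 encodes a zinc-finger protein and sits on the plus strand of chromosome 4 (147492417 to 147513486, ENSMUSG00000078496.9) beside other genes of that kind. It had no count in any 129S1/SvImJ liver. Its lowest, median and highest levels in C57BL/6J were 4.04, 8.0 and 9.18 CPM on high-fat diet and 3.15, 4.55 and 6.58 CPM on chow. The fold is again a bound, at least 218.1-fold lower in 129S1/SvImJ.

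Hoxa13, a homeobox gene that patterns the limbs and the hind part of the embryo (chromosome 6, 52257694 to 52260880, ENSMUSG00000038203.18, minus strand), is the lowest of the 3, also per length. In 129S1/SvImJ 2 livers had 1 count each. It had 0.958, 1.68 and 2.29 CPM as lowest, median and highest in C57BL/6J on high-fat diet and 0.727, 0.927 and 2.21 CPM on chow. Per kilobase of exon, mean levels in C57BL/6J on high-fat diet and chow were 6.00 and 3.69 CPM per kb for Cebpe, 4.74 and 3.14 CPM per kb for Zfp982 and 0.648 and 0.455 CPM per kb for Hoxa13.

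The other 4 coding genes encode a ubiquitin ligase subunit, 2 enzymes and a channel. Fbxo44 encodes an F-box protein, the part of an SCF ubiquitin ligase that binds the substrate (chromosome 4, 148152800 to 148160482, ENSMUSG00000029001.15, minus strand). In 129S1/SvImJ there was 1 count in 1 liver on high-fat diet and 2 counts in 1 on chow. In C57BL/6J its lowest, median and highest levels were 3.51, 4.06 and 4.82 CPM on high-fat diet and 2.40, 3.01 and 4.61 CPM on chow, the narrowest spread relative to its mean of the 16 genes on high-fat diet (coefficient of variation 12.5%). The pooled level was 131.1-fold lower in 129S1/SvImJ (exact 95% interval 44.6 to 637.6, counting error only).

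Dct encodes dopachrome tautomerase, an enzyme of melanin synthesis in pigment cells (chromosome 14, 118012790 to 118052244, ENSMUSG00000022129.4, minus strand). Single counts came from 4 129S1/SvImJ livers, 3 on high-fat diet and 1 on chow. In C57BL/6J its lowest, median and highest levels were 2.29, 2.87 and 6.01 CPM on high-fat diet and 4.23, 4.70 and 5.66 CPM on chow. The median was lower on high-fat diet, but the groups overlapped because 1 liver on high-fat diet exceeded all those on chow. Pooled over the diets, the level was 110.8-fold lower in 129S1/SvImJ (interval 43.1 to 408.1).

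Srd5a2 encodes a steroid reductase that converts testosterone to dihydrotestosterone (chromosome 17, 74016955 to 74047916, ENSMUSG00000038541.7, minus strand). Its 1 count in 129S1/SvImJ came from a liver on high-fat diet, and its C57BL/6J values ran from 0.915 to 2.503 CPM on high-fat diet and from 1.22 to 2.67 CPM on chow. Kcnk10 encodes a potassium leak channel and is the longest of the genes (chromosome 12, 98429437 to 98578310, ENSMUSG00000033854.10, minus strand). Of the 129S1/SvImJ livers, 2 had 1 count each on chow and none had a count on high-fat diet. Lowest, median and highest levels in C57BL/6J were 0.935, 2.13 and 4.34 CPM on high-fat diet and 1.15, 2.70 and 4.12 CPM on chow. The pooled level of Kcnk10 was 136.1-fold lower in 129S1/SvImJ, with an interval of 37.4 to 1128.

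Pseudogenes, which are copies of genes that have lost the ability to make the original protein, made up 4 of the 16. Gm1966 (chromosome 7, 106596743 to 106604035, ENSMUSG00000073902.5, minus strand) is annotated as an unprocessed pseudogene in GENCODE and as protein-coding in RefSeq. It had 5 counts over 4 129S1/SvImJ livers. In C57BL/6J its lowest, median and highest levels were 3.66, 8.25 and 17.7 CPM on high-fat diet and 6.495, 8.72 and 13.9 CPM on chow. It was 191.7-fold lower in 129S1/SvImJ (interval 81.9 to 591.3). Its transcript shares 17.52% of its 50-base stretches with other genes, 7.054% with Gvin1, a very large interferon-induced GTPase gene that met the same values and was left out by its symbol.

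Nlrp1c-ps is a relic of the Nlrp1 family of inflammasome sensors and lies next to the working gene Nlrp1b (chromosome 11, 71242430 to 71285232, ENSMUSG00000092528.9, minus strand). There was 1 count in each of 2 129S1/SvImJ livers, against lowest, median and highest levels of 1.45, 2.06 and 3.98 CPM in C57BL/6J on high-fat diet and 1.15, 1.89 and 2.34 CPM on chow. Gpr137b-ps is a copy of the lysosomal membrane protein gene Gpr137b (chromosome 13, 12615057 to 12650388, ENSMUSG00000097715.2, minus strand). Over 4 129S1/SvImJ livers it had 5 counts, against lowest, median and highest levels of 1.10, 2.12 and 4.15 CPM in C57BL/6J on high-fat diet and 1.06, 1.88 and 2.34 CPM on chow. Gpr137b itself ran the other way, at 3.55 ± 0.713 CPM in 129S1/SvImJ and 1.96 ± 0.727 CPM in C57BL/6J (SD, n = 11 and 13), a log2 difference of 0.91 (SE 0.13, edgeR adjusted p = 3.5e-06). Because the copy shares 29.48% of its stretches with other genes, nearly all with Gpr137b, and the sources used here do not say how reads that match both were handled, the values of this pair are uncertain.

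Gm8960 is a processed pseudogene (chromosome 10, 115599026 to 115600328, ENSMUSG00000112099.1, minus strand) that shares 28.01% of its stretches with the ribosomal protein gene Rps3a1. A count of 1 was seen in each of 3 129S1/SvImJ livers, against lowest, median and highest levels of 1.02, 1.75 and 2.53 CPM in C57BL/6J on high-fat diet and 1.77, 2.03 and 2.57 CPM on chow. Rps3a1 was at 77.3 ± 6.29 CPM in 129S1/SvImJ and 68.6 ± 10.7 CPM in C57BL/6J (SD), and the values of Gm8960 are uncertain for the same reason.

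The remaining 5 genes are non-coding or of unsettled type. Gm42047, a long intergenic RNA on chromosome 8 (121833247 to 121841178, ENSMUSG00000110631.1, plus strand), took the most counts of the 16 in both C57BL/6J diet groups, without regard to length, and had the widest spread on high-fat diet. A single 129S1/SvImJ liver had 1 count. In C57BL/6J its lowest, median and highest levels were 0.838, 9.21 and 41.8 CPM on high-fat diet and 1.63, 13.2 and 15.1 CPM on chow, a range that the plot of the spread between mice shows liver by liver. The pooled ratio was 1228-fold lower in 129S1/SvImJ, with a counting interval of 220.2 to 48540 that shows how little 1 count fixes. Its transcript shares 64.81% of its 50-base stretches with 10 other genes, which also makes its counts uncertain.

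Gm16348, a processed transcript on the same chromosome (41218139 to 41220894, ENSMUSG00000085445.1, plus strand), had no count in 129S1/SvImJ. Its lowest, median and highest levels in C57BL/6J were 2.82, 6.11 and 13.8 CPM on high-fat diet and 1.56, 4.03 and 13.3 CPM on chow, and it was at least 220.3-fold lower in 129S1/SvImJ. The snoRNA gene Gm24727 lies in an intron of the glutathione reductase gene Gsr, had 5 counts over 4 129S1/SvImJ livers, and ran from 0.765 to 2.06 CPM in C57BL/6J on high-fat diet and from 0.590 to 2.18 CPM on chow. Its host Gsr averaged 102.7 ± 5.25 CPM in 129S1/SvImJ and 92.2 ± 10.04 CPM in C57BL/6J (SD, n = 11 and 13), a log2 difference of 0.15 (SE 0.05, edgeR adjusted p = 0.0101).

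6820402A03Rik, on the minus strand of chromosome 1 (66793645 to 66796298, ENSMUSG00000103706.1), is of a type that GENCODE marks as yet to be tested by experiment. It lies inside Kansl1l on the same strand and shares no exon base with it. It had no count in 129S1/SvImJ, and 3.94, 4.42 and 6.31 CPM as lowest, median and highest in C57BL/6J on high-fat diet and 4.44, 4.85 and 5.69 CPM on chow, at least 175.3-fold lower in 129S1/SvImJ. Kansl1l was higher in 129S1/SvImJ, with 34.5 ± 5.45 CPM in 129S1/SvImJ and 26.6 ± 3.63 CPM in C57BL/6J (SD, n = 11 and 13), a log2 difference of 0.37 (SE 0.08, edgeR adjusted p = 0.000251).

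Gm43305, a processed transcript of 1 exon on chromosome 14 (54292443 to 54297456, ENSMUSG00000105703.2, minus strand), was the only gene of the 16 that was not detected in every C57BL/6J liver. It had 1 count in 1 129S1/SvImJ liver, against lowest, median and highest levels of 0, 1.45 and 2.89 CPM in C57BL/6J on high-fat diet and 0.768, 2.63 and 3.07 CPM on chow. The liver at 0 was replicate 4 on high-fat diet.

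The make-up of the 16 genes by class differed from that of the genes they were drawn from, and is described here without a test. Protein-coding genes were 43.75% of them (7 of 16) and 88.1% of the 12936 genes at 1 CPM or more in both C57BL/6J groups. Pseudogenes were 25% (4 of 16) against 1.353% (175 of 12936), and other non-coding genes 31.25% (5 of 16) against 10.55%. Genes of 1 exon block were 4 of 16 against 9.354%, the median exon length was 2839 against 4318 bases, and 12 of 16 lay on the minus strand against 49.78%. The 16 were also low in C57BL/6J, with a median of 2.81 CPM for the lower of the 2 diet means against 16.5 CPM, and 59.98% of the 12936 genes were at or above the highest of the 16. Class, length and level vary together among liver genes, and their parts in these shares were not tested.

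**Figure D2:**
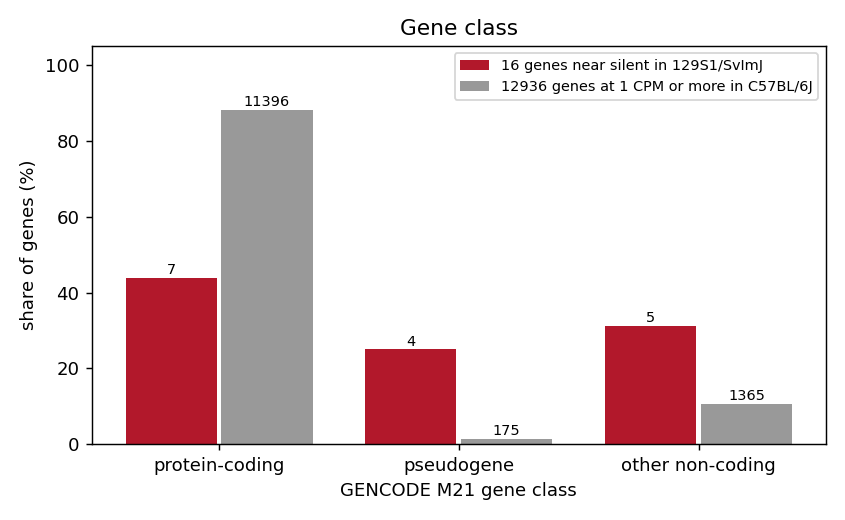
Share of genes by GENCODE M21 class (percent, axis from 0), for the 16 genes near silent in 129S1/SvImJ (red) beside the 12936 genes at 1 CPM or more in C57BL/6J (grey), with the number of genes above each bar. Coding genes are 43.75% of the red bars and 88.1% of the grey, and pseudogenes 25% against 1.353%.

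On the chromosomes the 16 were mostly scattered. They lay on 11 chromosomes, 8 of which held 1 gene each, while chromosomes 8 and 14 held 3 each and chromosome 4 held 2. Of the 12936 genes, 5.404% lie on chromosome 8, 3.448% on chromosome 14 and 5.898% on chromosome 4. Closeness within 1 Mb was seen for 2 pairs only. Zfp982 and Fbxo44 were 639.314 kb apart on chromosome 4, and Gm43305 and Cebpe were 412.904 kb apart on chromosome 14. The 3 genes of chromosome 8 were far from each other, with Gm24727 and Gm16348 7526.195 kb apart and Gm42047 80612.353 kb from Gm16348, and Dct was 63300.616 kb from Cebpe. With the 6 symbols that were left out put back, Gm1966 gained a neighbour, Gvin1, at 381.417 kb on chromosome 7.

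The values near the thresholds show how sharp the selection is. Just inside 0.05 CPM in 129S1/SvImJ were Gm24727 (0.0466), Gm1966 (0.0464) and Gpr137b-ps (0.0437), and just outside were Zfp984 (0.0556), Acpp (0.0562) and Gm32468 (0.0578). On the C57BL/6J side, Hoxa13, Gm24727 and Gm43305 were just inside with lower diet means of 1.13 CPM on chow, 1.15 CPM on chow and 1.40 CPM on high-fat diet. Just outside were Klhl31 (0.981 CPM on high-fat diet and 0.989 CPM on chow), Gm3219 (0.933 and 0.864 CPM) and Tuba8 (0.882 and 2.06 CPM). The same rule with the strains exchanged found 24 genes near silent in C57BL/6J.

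The choice of genes did not use the comparison of diets within C57BL/6J beyond the 1 CPM minimum. Cebpe rose on high-fat diet, and none of the other 15 passed the test. In the edgeR quasi-likelihood fit to all 24 libraries, 1 of 16 genes was called at an adjusted p under 0.05 (6.25%), against 14.9% of the 14533 genes tested, of which 7.66% were higher and 7.20% lower. The standard errors of the 16 were larger, with a median of 0.26 on the log2 scale against 0.12 for all genes tested, so nothing is read from the lower share. All 16 passed the filter on low counts, through their C57BL/6J counts. Cebpe averaged 7.45 ± 1.85 CPM on high-fat diet (SD, n = 7) and 4.58 ± 0.915 CPM on chow (SD, n = 6), a log2 difference of 0.66 (SE 0.18, edgeR adjusted p = 0.0226). The call ended without replicate 2 on chow (edgeR adjusted p = 0.0506) or without replicate 1 on high-fat diet (edgeR adjusted p = 0.0512). In limma voom, chosen after seeing the data, the log2 difference was 0.67 without the number in the mouse identifiers (limma adjusted p = 0.00283). With that number as a random effect it was also 0.67 (limma adjusted p = 0.00276). The correlation within a number was -0.00149, so nearly all of the fall from the edgeR adjusted p came with the change of method. Beside the Cebpe difference, 5 genes listed as adipocyte markers summed to 42.1 to 303.3 CPM in C57BL/6J on high-fat diet and 0.0960 to 8.26 CPM on chow. Cfd (149.1 ± 81.1 CPM on high-fat diet and 3.51 ± 3.54 CPM on chow) and Cidea (18.3 ± 16.02 CPM and 0.0665 ± 0.0783 CPM) carried nearly all of that sum. Adipoq, Lep and Plin1 had means of 0.204, 0.486 and 0.259 CPM on high-fat diet, each with a median of 0. Adipoq was above 0.5 CPM in 1 C57BL/6J and 1 129S1/SvImJ liver, and without these 2 the log2 difference of Cebpe was 0.67 (edgeR adjusted p = 0.0328). The part of Cfd and Cidea in the result was not tested.

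Dct and Zfp982 came next. Dct averaged 3.48 ± 1.25 CPM on high-fat diet and 4.90 ± 0.595 CPM on chow (SD, n = 7 and 6), a log2 difference of -0.54 (SE 0.20, edgeR adjusted p = 0.0715). Zfp982 averaged 7.05 ± 1.98 CPM on high-fat diet and 4.68 ± 1.261 CPM on chow (SD, n = 7 and 6), a log2 difference of 0.54 (SE 0.22, edgeR adjusted p = 0.104). The edgeR adjusted p of Dct fell to 0.00948 when replicate 3 on high-fat diet was left out, and that of Zfp982 to 0.0459 without replicate 2 on high-fat diet. Both passed in limma voom (adjusted p = 0.0115 for Dct and 0.0385 for Zfp982), an alternative chosen after seeing the data. Within the chow group Zfp982 ran from 3.15 to 3.94 CPM in replicates 1 to 3, which carry 1 identifier number, and from 5.17 to 6.58 CPM in replicates 4 to 6, which carry the other. On chow 4 of the 16 genes (Zfp982, Hoxa13, Nlrp1c-ps and Kcnk10) did not overlap between the 2 numbers, and on high-fat diet 0 of 16. The share of all genes without such overlap was not computed, and groups this small can separate by chance. Nothing is read from these counts. At an unadjusted p under 0.05 there were 3 of the 16, against 28.93% of all genes. The differences were positive for 8 genes and negative for 8, with a median of 0.08 on the log2 scale beside 0.01 over all genes. The standard error was highest for Gm42047, at 0.56.

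**Figure D3:**
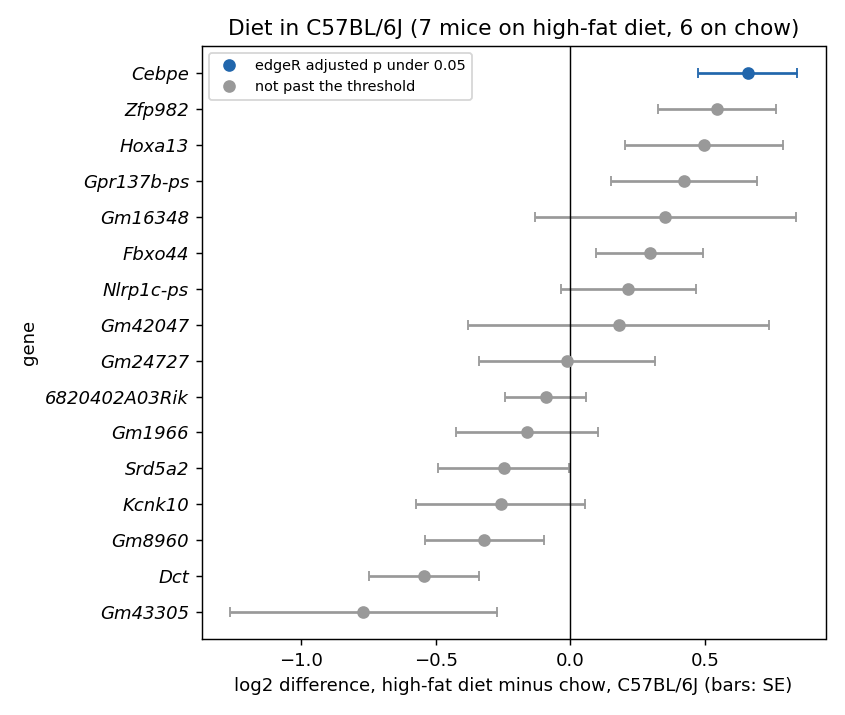
Log2 difference between C57BL/6J mice on high-fat diet (7) and on chow (6) for each of the 16 genes (points), with bars of 1 SE from the edgeR fit. Cebpe, in blue, is past the threshold, and the others, in grey, run from -0.77 for Gm43305 to 0.54 for Zfp982.

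Over the 13 C57BL/6J libraries, the genes outside the set whose levels ran most like Cebpe were Fbxl15 (Pearson r = 0.911), Gm11788 (0.895) and Stx2 (0.894), on log2(CPM + 0.5). The points share their libraries and both diets, and the 3 were picked as the highest of all genes tested, so the coefficients are descriptions.

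The spread from mouse to mouse within C57BL/6J differed widely among these genes. The median coefficient of variation (SD as a percentage of the mean) was 35.94% on high-fat diet and 26.26% on chow, against 22.75% and 20.63% over 5096 other genes at 1.167 to 11.82 CPM. Gm42047 reached 104.2% on high-fat diet, above 99.71% of those genes, through replicate 2 at 41.8 CPM beside the lowest liver at 0.838 CPM, and was 54.9% without that liver. Gm16348 reached 79.95% on chow, above 99.57%, through replicate 4 at 13.3 CPM, and was 36.5% without it. Gm43305 reached 85.94% on high-fat diet, above 99.33%, and was 95.7% without its highest liver. Gm42047 and Gm1966 were each highest in replicate 2 and lowest in replicate 7 of the high-fat diet. Fbxo44 was the steadiest of the 16 on high-fat diet at 12.5%, and 6820402A03Rik was the steadiest of the 16 on chow at 9.867%.

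**Figure D4:**
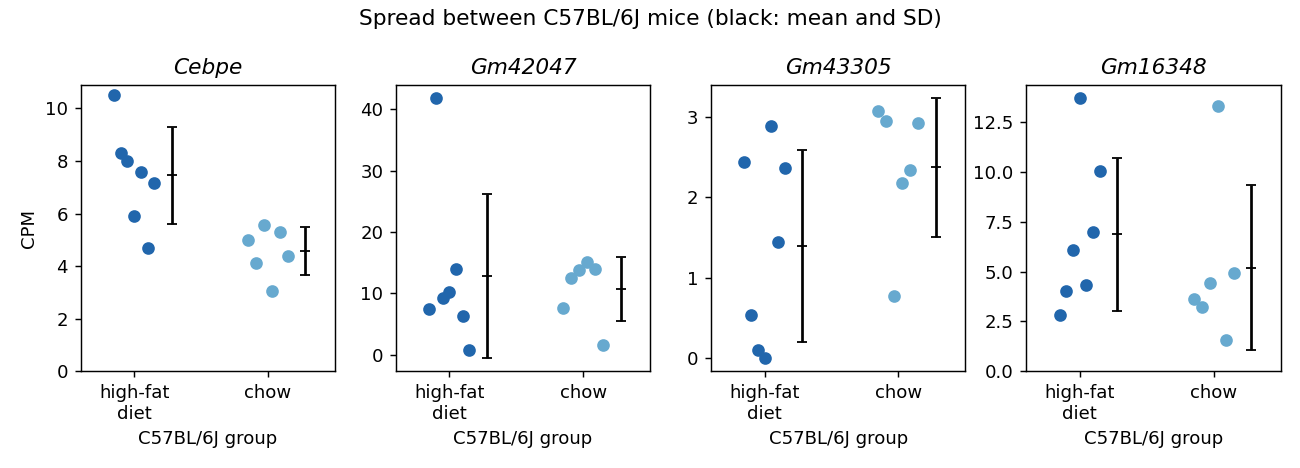
CPM of Cebpe, Gm42047, Gm43305 and Gm16348 in each C57BL/6J liver (points), on high-fat diet (left, n = 7) and chow (right, n = 6), with the mean and SD in black. Gm42047 spans 0.838 to 41.8 CPM on high-fat diet, while Cebpe spans 4.70 to 10.5 CPM there and 3.07 to 5.57 CPM on chow.

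Shared sequence was a property of some of the 16 genes and not of others. No 50-base stretch of Cebpe, Fbxo44, Hoxa13, Kcnk10 or 6820402A03Rik occurs in the transcripts of another gene, on either strand. More than 10% of stretches were shared in 7 genes: Gm24727 (75.79%), Gm42047 (64.81%), Gm8960 (35.59%), Gpr137b-ps (29.48%), Gm43305 (17.82%), Gm1966 (17.52%) and Zfp982 (11.89%). In the other 4 the share was 0.7923% to 6.234%. An antisense gene lies across Kcnk10 (Gm40893, at 0 CPM in 129S1/SvImJ and 0.176 CPM in C57BL/6J) and another across Dct (4930435M08Rik, at 0.00697 and 0.00770 CPM).

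Among tested genes near the 16, more were called lower in 129S1/SvImJ than higher, and genes that could only be called lower are in that count. These neighbours, any other gene with a base within 250 kb, were not chosen by their own values beyond the filter on low counts. Of 90 that were tested, 30 were lower in 129S1/SvImJ (33.33%), 16 were higher (17.78%) and 44 were not called, for the mean of the 2 diets in the same edgeR fit. Over all 14533 genes the strain difference called 43.3%, with 21.6% lower and 21.7% higher. A called fall of 1 or more on the log2 scale was seen in 11 of the 90 (12.22%, against 5.171% of the other genes tested), and a called rise of that size in 0, the largest being 0.77. Of the 11, Zfp979, Zfp984, Gm15793, Cdh24 and Tspan8 had no 129S1/SvImJ liver above 0.789 CPM. They passed the filter on low counts through their C57BL/6J counts, so their falls and adjusted p-values are read as descriptions only. They stay in the counts of 30 and 11, which were not repeated without them, so nothing is read from the difference to the other genes. The median difference was -0.06, against 0.01 for the other genes. Neighbours of 1 gene share a stretch of chromosome and are not independent, and the 2 counts are given without a test.

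All 3 tested neighbours of Zfp982 were lower in 129S1/SvImJ, and nothing is read from this count. The zinc-finger genes Zfp979 and Zfp984 lie 98.45 and 240.5 kb downstream. Zfp979 averaged 0.129 ± 0.121 CPM in 129S1/SvImJ and 1.77 ± 1.42 CPM in C57BL/6J (SD, n = 11 and 13), a log2 difference of -3.45 (SE 0.42, edgeR adjusted p = 1.79e-07). Zfp984, which missed the 129S1/SvImJ threshold narrowly, averaged 0.0556 ± 0.107 CPM in 129S1/SvImJ and 1.95 ± 0.544 CPM in C57BL/6J, a log2 difference of -5.71 (SE 0.43, edgeR adjusted p = 2.77e-10). In both genes the highest 129S1/SvImJ liver (0.387 and 0.268 CPM) was below the lowest C57BL/6J liver (0.480 and 1.09 CPM). Zfp979 and Zfp984 passed the filter on low counts through C57BL/6J and could only be called lower, so their differences and adjusted p-values are descriptions only. Zinc-finger genes of this cluster resemble each other, so their values are uncertain as well. The long intergenic RNA Gm26624, 35.40 kb upstream, was lower by less (log2 difference -0.70, edgeR adjusted p = 0.00154). Near Fbxo44, the other gene of this pair, the adjoining F-box gene Fbxo6 at 0.66 kb did not pass the test (edgeR adjusted p = 0.122), with 18.8 ± 4.81 CPM in 129S1/SvImJ and 21.5 ± 3.22 CPM in C57BL/6J.

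Around Cebpe, 7 of 15 tested neighbours were lower in 129S1/SvImJ and 2 were higher. The nearest upstream is the amino acid transporter gene Slc7a8, at 10.04 kb, with 2.70 ± 0.958 CPM in 129S1/SvImJ and 6.70 ± 2.18 CPM in C57BL/6J (SD, n = 11 and 13), a log2 difference of -1.27 (SE 0.18, edgeR adjusted p = 1.35e-06). The largest difference there was that of Ppp1r3e, which encodes a subunit that targets protein phosphatase to glycogen, 160.5 kb upstream, with 1.86 ± 0.592 CPM against 7.58 ± 1.82 CPM (log2 difference -2.03, edgeR adjusted p = 1.22e-12). Cdh24 and Ajuba, which encode a cadherin and a LIM-domain adaptor at 69.0 and 132.8 kb downstream, were lower by 1.21 and 1.29 on the log2 scale (edgeR adjusted p = 0.00693 and 1.05e-08). Cdh24 passed the filter on low counts through C57BL/6J, so its values are a description only. Haus4, which encodes a subunit of the augmin complex of the mitotic spindle, lies 155.7 kb downstream and was higher in 129S1/SvImJ, at 17.2 ± 1.22 CPM against 10.6 ± 1.301 CPM (log2 difference 0.70, edgeR adjusted p = 1.25e-10). The nearest downstream, 1700123O20Rik at 19.62 kb, was also higher in 129S1/SvImJ, at 17.9 ± 2.19 CPM against 15.7 ± 1.47 CPM (log2 difference 0.19, edgeR adjusted p = 0.0256). Haus4 is within 250 kb of Gm43305 as well. Of the tested genes nearest to Gm43305, Abhd4 was not called and Oxa1l was higher in 129S1/SvImJ by 0.29 on the log2 scale (edgeR adjusted p = 4.04e-05).

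**Figure D5:**
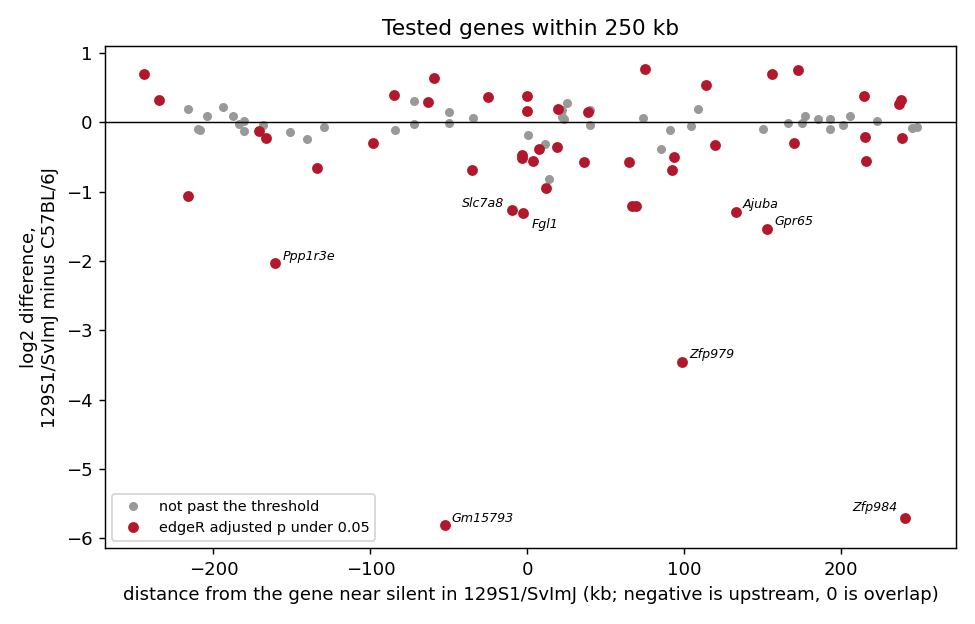
Log2 difference between 129S1/SvImJ and C57BL/6J (mean of both diets) for the 90 tested genes within 250 kb of the 16 genes, by distance in kb (negative upstream, 0 overlapping), with red points past the edgeR threshold. The lowest fitted values are those of Gm15793 (-5.81, from 1 count in 129S1/SvImJ), Zfp984 (-5.71) and Zfp979 (-3.45), and no called point lies above 0.77.

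Beside the other genes, falls of 1 or more on the log2 scale involved at most 1 gene each. The processed pseudogene Gm15793, 52.81 kb from 6820402A03Rik, had 1 count over the 129S1/SvImJ livers and 150 over the C57BL/6J livers, 110.7-fold lower in 129S1/SvImJ (exact 95% interval 19.6 to 4399, counting error only; edgeR adjusted p = 7.18e-10). Its fitted log2 difference depends on the prior count. Gm15793 passed the filter on low counts through C57BL/6J, so its adjusted p is a description only. The liver-secreted fibrinogen-like gene Fgl1, 2.983 kb upstream of Gm16348, ran from 11.5 to 70.5 CPM in 129S1/SvImJ and from 70.6 to 375.6 CPM in C57BL/6J (log2 difference -1.31, edgeR adjusted p = 0.000509). Xanthine dehydrogenase (Xdh), an enzyme of purine breakdown 66.76 kb downstream of Srd5a2, averaged 115.6 ± 23.98 CPM in 129S1/SvImJ and 261.8 ± 33.7 CPM in C57BL/6J (log2 difference -1.21, edgeR adjusted p = 1.15e-13). The acid-sensing receptor gene Gpr65, known from immune cells and 152.8 kb downstream of Kcnk10, was lower by 1.53 on the log2 scale in 129S1/SvImJ (edgeR adjusted p = 1.86e-05), where the Kupffer cell and lymphocyte sums were also lower, and their part was not tested. Nlrp1b, 11.70 kb from Nlrp1c-ps, was at 1.23 ± 0.400 CPM in 129S1/SvImJ and 2.34 ± 0.655 CPM in C57BL/6J (log2 difference -0.94, edgeR adjusted p = 0.000167). The tetraspanin gene Tspan8, 216.5 kb upstream of Gm8960, was lower by 1.07 on the log2 scale in 129S1/SvImJ (edgeR adjusted p = 0.0265). Tspan8 passed the filter on low counts through C57BL/6J, so these values are a description only. Skap2 near Hoxa13 (-0.09 on the log2 scale) and Memo1 near Srd5a2 (-0.14) did not pass the test.

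Other neighbours were higher in 129S1/SvImJ. Near Gm42047, 2 of 6 were higher and 1 was lower. Car5a, which encodes a mitochondrial carbonic anhydrase 74.95 kb downstream, had the largest called rise of the 90 neighbours, at 106.3 ± 12.9 CPM in 129S1/SvImJ and 62.9 ± 11.7 CPM in C57BL/6J (SD, n = 11 and 13), a log2 difference of 0.77 (edgeR adjusted p = 2.68e-09). The autophagy gene Map1lc3b was higher by 0.32 on the log2 scale (edgeR adjusted p = 0.000139). The nearest upstream, Klhdc4, was lower by 0.47 (edgeR adjusted p = 1.74e-05), and the nearest downstream, the amino acid transporter gene Slc7a5, did not pass the test (0.17, edgeR adjusted p = 0.411). Near Dct, Tgds at 59.67 kb upstream was higher, with 39.6 ± 2.78 CPM in 129S1/SvImJ and 25.3 ± 2.102 CPM in C57BL/6J (log2 difference 0.64, edgeR adjusted p = 5.55e-10). The glypican gene Gpc6 on its other side, at 36.25 kb, was lower by 0.58 on the log2 scale (edgeR adjusted p = 0.00571).

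The other nearest genes differed by less than 1 on the log2 scale. Ero1lb, which encodes an oxidase of the endoplasmic reticulum 3.661 kb downstream of Gpr137b-ps, averaged 56.2 ± 8.28 CPM in 129S1/SvImJ and 82.5 ± 20.8 CPM in C57BL/6J (SD, n = 11 and 13), a log2 difference of -0.56 (edgeR adjusted p = 0.000411). Pcm1, a gene of centriolar satellites 18.86 kb downstream of Gm16348, was lower by 0.35 on the log2 scale (edgeR adjusted p = 3.57e-05). Gm37285, 3.361 kb upstream of 6820402A03Rik, was lower by 0.52 (edgeR adjusted p = 0.00414), and Gm38162 on the other side did not pass the test (-0.81, edgeR adjusted p = 0.0732). Gm8995 near Gm1966 (-0.39, edgeR adjusted p = 0.0816), the stem-cell marker gene Lgr5 near Gm8960 (-0.31, edgeR adjusted p = 0.0586) and Spata7 near Kcnk10 (0.15, edgeR adjusted p = 0.399) did not pass it either.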

How the data were processed

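Per the labels' protocols, liver RNA was extracted with a column kit, treated with DNase, depleted of ribosomal RNA and made into strand-keeping libraries. STAR 2.5.4b, DESeq2 1.26.0, Bowtie2 2.2.3, Trimmomatic 0.36 and the mm10 build are listed, per the submitters' processing notes. The sources used here do not give the counting tool, its strand setting or its handling of reads with several matches. The authors deposited raw counts per gene (24 files, identical to the columns of 1 matrix) and a matrix of variance-stabilized log2 values, used for 1 alternative.

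Of 53677 identifiers 53582 matched GENCODE M21, the source of symbols, classes and mm10 coordinates. The other 95 held 0.00747% of counts. CPM is the count over the column sum. edgeR 4.0.16 in R 4.3.3 (filterByExpr, TMM, robust quasi-likelihood, two-sided, 1 mean per group) was fitted to 24 libraries, with Benjamini-Hochberg adjustment over all 14533 genes tested, and was tested on simulated data. DESeq2 1.42.0 and limma 3.58.1 served as alternatives. P-values set each difference against the variation between mice together with counting noise, with the mice treated as independent. All library pairs of a group differed beyond sampling noise (the least chi-square was 5.78 per degree of freedom). Intervals of ratios are exact, at 95%, and cover counting error only.

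All 16 genes are named. Values by library are given for the 12 highest in C57BL/6J, for genes called for diet and for genes within 1 Mb of another. Near them, the nearest tested gene on each side was named by rule for genes given in full, and Ppp1r3e, Zfp984, Gm15793, Ajuba, Cdh24, Haus4, Car5a and Map1lc3b were chosen after their values were seen. The genes, lists and tests were chosen with earlier results of these data known.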

Additional observations from a re-analysis of the deposited data

Results flagged for a closer look

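In 4 of 32 groups of C57BL/6J livers 1 library stood apart from the rest of its group by Dixon's gap test at 95%, where chance gives about 1 in 20 for normally distributed values. The CPM of genes with few counts need not be so distributed, and each of the 4 was the highest of its group. Other genes were not put through the test, so nothing is read from the share. Groups with under 10 counts, all those of 129S1/SvImJ among them, were not tested. Gm42047 was at 41.8 CPM in replicate 2 on high-fat diet, with the next liver at 14.0 CPM. Gm16348 was at 13.3 CPM in replicate 4 on chow, with the next at 4.96 CPM. Hoxa13 was at 2.21 CPM in replicate 3 on chow, with the next at 1.18 CPM. Gm24727 was at 2.06 CPM in replicate 7 on high-fat diet, with the next at 1.22 CPM. The 4 values came from 4 different livers.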

How the results depend on the processing

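Which genes count as near silent depended on the thresholds. With at most 0.02 CPM in 129S1/SvImJ 9 genes remained of the 16, and with at most 0.1 CPM there were 29. With at least 2 CPM in C57BL/6J 9 of the 16 remained, and with at least 0.5 CPM there were 37. CPM per TMM library size gave the same 16 genes, and leaving out each library in turn gave 14 to 17, with Gm1966 and Gm24727 lost most often. Diet called 1 of the 16 genes in C57BL/6J in most alternatives, 2 with the 7SK RNA level as a covariate (Dct added), 3 with limma on the variance-stabilized values (Dct and Zfp982 added), 3 with limma voom and 3 with limma voom and the identifier number as a random effect (both added after seeing the data), and 0 to 2 when 1 library was left out. Over all genes the diet count was 1535 to 2424 across the other alternatives and 1627 to 2502 with 1 library left out. Within 100 kb of the 16 genes, 18 of 45 tested genes were lower (40%) and 9 higher (20%). Within 500 kb, 43 of 141 were lower (30.5%) and 29 higher (20.57%), with Gvin1, which met the values of the rule, among them. Over all genes tested, 21.6% were lower and 21.7% higher. With no filter on low counts, 43 were lower and 14 higher within 250 kb, against 3562 lower and 3251 higher of 30864 genes. With 1 library left out, 29 to 34 were lower and 14 to 17 higher within 250 kb. Without the 2 libraries with adipocyte transcripts, an alternative chosen after seeing the data, 15 genes met the rule (Gm1966 lost), 1 was called for diet, and 30 neighbours were lower and 16 higher. Replicate numbers are shared by different mice and did not pair them: over 6 pairs of C57BL/6J libraries the correlation of deviations was -0.13 to 0.23, with 2 over 0.1 and 2 libraries closest to their own number. With the replicate block the diet called 1746 genes in all and the same count of 1 among the 16, and 33 neighbours were lower and 15 higher. Standard errors of the diet differences were 0.15 to 0.56 on the log2 scale among the 16, and the parts of depth and of spread between mice in them were not separated.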
